A study of Mus musculus with 9 samples.

Results

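Hippocampal gene expression after both genetic manipulations of IF1 was compared with control hippocampus, setting the 6 arrays of IF1-KO and IF1-TG mice together against the 3 arrays of control (CRL) mice, which are all 9 arrays of the series. The genes described are those that differed from CRL in the same direction after loss and after gain of IF1. The mice were male animals aged 9 months on a C57BL/6J background, 3 per genotype, with 1 one-colour Agilent mouse array per animal. The study names a C57BL/6NTac line as the source of the floxed allele, and lines of mixed B6 and CBA origin for the IF1 and tTA transgenes. The array measures transcripts by the fluorescence of printed probes. IF1-KO mice carried a floxed *Atp5if1* allele, whose exon 3 was deleted by a Cre recombinase driven by the *Camk2a* promoter. IF1-TG mice carried human IF1 under a tetracycline-regulated element and the tTA transactivator, also driven by the *Camk2a* promoter. The labels used here do not give the genotype of the CRL mice. For the embryos of its neuronal cultures, the study describes CRL as carrying the wild-type *Atp5if1* allele with Cre, and the controls of the transgenic line as wild type or carrying tTA, so that whether Cre or tTA was present in the CRL mice of the arrays is not known and their own effects cannot be told apart from those of IF1. The *Camk2a* promoter acts mostly in excitatory forebrain neurons, and the other cells of the dissected tissue keep their own IF1.

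IF1 is a small mitochondrial protein that binds the ATP synthase and inhibits its activity. In neurons the ATP synthase supplies most of the ATP for synaptic transmission, and its inhibition alters the mitochondrial membrane potential and the production of reactive oxygen species. A gene that moves one way when IF1 is removed and also when IF1 is raised departs from CRL in both models, whichever way the enzyme is shifted.

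A probe was tested when it was well above background on all 9 arrays, and 24937 of 39429 probes, carrying 19592 gene names, met this. Levels are log2 intensities minus the log2 of each array's 75th percentile, so that 0 is the 75th percentile and a difference of 1 is a doubling. The difference tested was the mean of the IF1-KO and IF1-TG means minus the CRL mean. The methods of the study give a fold change of 1.5 and a limma *P* below 0.05, without saying whether it was adjusted. Here a gene rose or fell when a probe reached that fold change and an unadjusted limma *P* below 0.05. A gene moved the same way when, in addition, IF1-KO and IF1-TG each differed from CRL by at least 1.5-fold in the same direction on that probe. Both differences share the same 3 CRL arrays, so that a stray CRL value moves them together.

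Of the 19592 genes, 250 passed the thresholds (1.28% of the genes tested), of which 195 were higher than CRL (0.995%) and 55 lower (0.281%). No probe passed a Benjamini-Hochberg adjusted limma *P* of 0.05 (0 of 24937), and the smallest adjusted *P* was 0.277. At an unadjusted *P* below 0.05 alone, 1170 probes were counted, or 4.69% of those tested, close to the share that a threshold of 0.05 gives by itself. On its own, IF1-KO against CRL gave 176 genes past the thresholds (0.898%), and IF1-TG against CRL gave 879 (4.49%). The comparisons below are therefore descriptions of single genes, and none of them passed the adjustment for the number of probes.

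The same-way set held 93 genes, each with 1 probe, of which 76 rose and 17 fell. The rises had a median log2 difference of 0.77 and ranged from 0.59 to 1.24, and the falls had a median of -0.76 and ranged from -0.62 to -1.18. In 26 of the 93 the 6 IF1-KO and IF1-TG arrays did not overlap the 3 CRL arrays (18 rises and 8 falls), and 2.07% of all probes tested had this separation. The thresholds that chose the 93 used these same 9 arrays and favour separated probes, so that nothing is read from the contrast. At the fold threshold, *Zfp958* (smaller of the IF1-KO and IF1-TG differences 0.586) and *Mc3r* (0.588) lay just inside the set, and *Megf9* (0.584) and *Ddx43* (0.584) lay just outside. The probes of the set were dim, with a median level of -3.10 for the rises and -3.65 for the falls, against -1.11 over all probes tested.

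**Figure D1:**
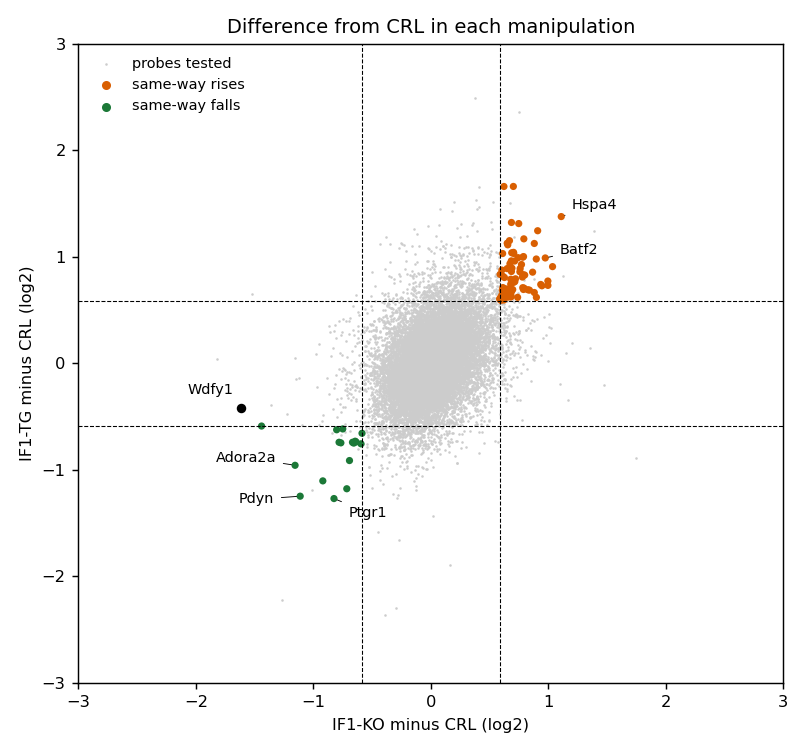
Log2 difference of IF1-KO from CRL (horizontal axis) and of IF1-TG from CRL (vertical axis) for each of the 24937 probes tested, with dashed lines at a fold change of 1.5. The 76 rises (orange) lie in the upper right corner and the 17 falls (green) in the lower left, and the tilt of the grey cloud includes the CRL arrays that both axes share.

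The targeted gene was examined first. *Atpif1*, the gene of IF1 (now *Atp5if1*; probe on mm9 chr4:132086507-132086566), had a level of 6.43, 5.20 and 5.53 in IF1-KO replicates 1 to 3. Its CRL levels were 6.30, 6.34 and 6.19, and its IF1-TG levels 6.42, 6.38 and 6.51. The array labelled IF1-KO replicate 1 showed no reduction, and the direction of any IF1-KO value that rests on it is open to that label. Whether the mouse probe detects human IF1 was not tested. Without this array 250 genes passed the thresholds and 96 moved the same way, 63 of them among the 93.

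A second array that stands apart is CRL replicate 3. Among the 76 rises it was the highest of the 3 CRL arrays in 61 (80.3%), against 26.5% of all probes tested. Relative to the CRL mean, the median of the rises was -0.22 and -0.29 on CRL replicates 1 and 2 and 0.57 on CRL replicate 3, and it was 0.65 to 0.82 on IF1-KO arrays and 0.65 to 0.95 on IF1-TG arrays. In most of the rises CRL replicate 3 was thus close to the manipulated arrays, and the other CRL arrays were low. The falls had no such pattern, with medians of 0.03, 0.05 and -0.06 for CRL, -0.61 to -0.81 for IF1-KO and -0.70 to -0.93 for IF1-TG arrays. Without CRL replicate 3 the counts were 646 genes past the thresholds and 362 moved the same way, 78 of them among the 93, and 7 probes had an adjusted limma *P* below 0.05. Without CRL replicate 2 the counts were 372 and 138, of which 30 were among the 93.

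**Figure D2:**
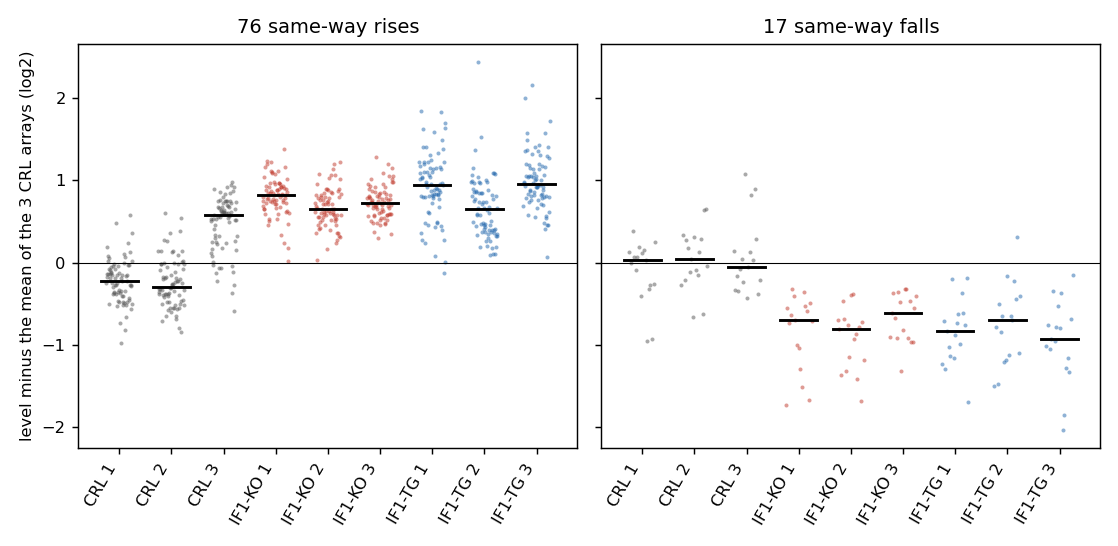
Level of each same-way gene on each of the 9 arrays, as the log2 difference from the mean of the 3 CRL arrays, for the 76 rises (left) and the 17 falls (right). Each point is a gene and each bar the median of an array, which for the rises is 0.57 on CRL replicate 3 and -0.22 and -0.29 on the other CRL arrays.

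The arrays came from 3 slides. CRL replicates 1 and 2 were on slide 2 with IF1-KO replicate 1 and IF1-TG replicate 3, and CRL replicate 3 was on slide 3 with the other IF1-KO arrays, while slide 1 had IF1-TG arrays only. Within slide 2 the 76 rises had a median difference of 1.16, and 73 of them reached 1.5-fold. Within slide 3 the median was 0.16, 13 reached 1.5-fold, and 23 were at 0 or below. For the falls, the median was -0.86 within slide 2 and -0.71 within slide 3, and no fall had the opposite sign within either (0 of 17 on each). In the 8 falls with separated arrays that sign was fixed in advance. With slide as a fixed block, 622 genes passed the thresholds and 97 moved the same way, 48 of them among the 93. On slide 2, beside the low CRL arrays, the rises had medians of 0.82 on IF1-KO replicate 1 and 0.95 on IF1-TG replicate 3. The other IF1-KO arrays had 0.65 and 0.73, and the other IF1-TG arrays 0.95 and 0.65. The rises were chosen from these same arrays. Slide 3 holds no other CRL array beside CRL replicate 3, so that slide and CRL array cannot be told apart.

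Prodynorphin (*Pdyn*), the precursor of the dynorphin opioid peptides and a transcript of dentate granule cells, had the largest fall of the set. Its probe (mm9 chr2:129512323-129512382) read 1.73, 1.32 and 1.74 on the CRL arrays, -0.13, 0.90 and 0.69 on the IF1-KO arrays, and 0.36, 0.11 and 0.59 on the IF1-TG arrays. The highest manipulated array, IF1-KO replicate 2, lay below the lowest CRL array. *Pdyn* was 2.27-fold lower, with a log2 difference of -1.18 ± 0.23 (SE, n = 6 and 3; limma adjusted *P* = 0.952, as for each of the 93 genes). The exact two-sided permutation test gave *P* = 0.0119, the smallest value that 84 splits of 9 arrays allow. Since the named genes were chosen for arrays that do not overlap and for a small *P*, this value follows in part from the choice and is a description. The difference was -1.11 in IF1-KO and -1.25 in IF1-TG mice, and the gap between these genotypes did not pass the test (limma adjusted *P* = 0.917).

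Because every manipulated array lay below every CRL array, the direction of *Pdyn* without single arrays or within a slide was fixed in advance. Only the size of its difference could vary. Its difference was -1.30 within slide 2 and -0.95 within slide 3. It was -1.02 when IF1-KO replicate 1 was left out, -1.11 without CRL replicate 3 and -0.95 without both, and it passed the thresholds in each of the 9 fits that left out 1 array. The array holds 1 tested *Pdyn* probe, so that no second probe could be set beside it. The bases before the start of *Pdyn* are shown as the sequence next to the gene with the largest fall, and those before *Hspa4* as the sequence next to the gene with the largest rise, both from RefSeq on GRCm38.p6. The window of 250 bases upstream of *Pdyn* is at chr2:129699939-129700188, minus strand (the first of 2 starts listed), and that of *Hspa4* at chr11:53300480-53300729, minus strand. Capitals mark TGACG, the core of the cyclic AMP response element, on either strand.
Pdyn: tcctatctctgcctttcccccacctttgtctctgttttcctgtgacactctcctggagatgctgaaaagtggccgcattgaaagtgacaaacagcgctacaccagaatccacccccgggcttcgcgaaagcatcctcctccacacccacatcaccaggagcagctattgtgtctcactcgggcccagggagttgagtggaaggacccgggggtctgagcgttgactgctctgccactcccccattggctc
Hspa4: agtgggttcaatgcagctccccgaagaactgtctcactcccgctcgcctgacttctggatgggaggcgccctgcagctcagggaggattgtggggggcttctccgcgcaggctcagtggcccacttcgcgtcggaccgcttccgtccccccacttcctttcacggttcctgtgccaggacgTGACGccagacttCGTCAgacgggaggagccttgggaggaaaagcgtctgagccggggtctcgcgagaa

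The letters of 6 motifs were searched on both strands. The *Pdyn* window holds none of them, and the *Hspa4* window holds TGACG at 2 places. Of the same-way genes, 45 of 56 rises and 13 of 17 falls with a RefSeq symbol had a window in the table. TGACG was in 11 of the 45 (24.4%) and 2 of the 13 (15.4%), against 25.1% of the 12333 tested genes with a window. The full element TGACGTCA, which contains those letters, was in 0 of the 45 and 0 of the 13, against 2.65%. The GC box GGGCGG was in 22 of the 45 (48.9%) and 3 of the 13 (23.1%), against 54.7%. The AP-1 element, as TGANTCA, was in 3 of the 45 and 1 of the 13, against 4.63%. The E-box CACGTG was in 2 of the 45 and 0 of the 13, against 7.91%, and the core of the heat shock element, as GAANNTTC, was in 1 of the 45 and 0 of the 13, against 5.32%. These matches describe the letters of the windows only.

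Among the other falls with a RefSeq symbol and no overlap between the arrays, *Ptgr1*, a prostaglandin and leukotriene reductase, read -2.04, -2.63 and -2.59 on the CRL arrays. It read -3.16, -3.78 and -2.79 on the IF1-KO arrays and -3.71, -3.89 and -3.46 on the IF1-TG arrays. The difference was -1.05 ± 0.23 (SE), -0.97 within slide 2 and -0.70 within slide 3. *Pla2g2f*, a secreted phospholipase A2, read -2.34, -2.52 and -2.37 on the CRL arrays against a highest manipulated value of -2.77. Its difference was -0.80 ± 0.22 (SE), and it was -0.66 within slide 2 and -0.88 within slide 3. Both falls passed the thresholds without each array in turn, and *Pla2g2f* lost the fold change under normexp background correction (-0.50).

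The other falls with separated arrays were *Pcdhb8*, a clustered protocadherin of neuronal cell contacts (log2 difference -1.01), *Zswim6* (-0.70), *Gm4470* (-0.70), *Cyp4a10*, a fatty acid hydroxylase (-0.69), and *Tpsb2*, a tryptase of mast cells (-0.67). Their arrays lay close at the edge. The lowest CRL value of *Tpsb2* was -1.90 and the highest manipulated value -2.02, and within slide 3 its difference was -0.22. *Cyp4a10* has a second tested probe at -0.14 and *Zswim6* has 3, at -0.03, 0.19 and -0.07, none of which passed the test. Of the 9 fits that left out 1 array, *Cyp4a10* passed the thresholds in all 9 and *Gm4470*, *Tpsb2* and *Pcdhb8* in 8 each. *Zswim6* passed in 7, with -0.55 without IF1-KO replicate 1. *Pcdhb8* did not pass the test without CRL replicate 3.

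The largest rise was *Hspa4*, a chaperone of the Hsp110 family that works with Hsp70. Its probe (mm9 chr11:53073347-53073406) read -0.01 and -0.54 on CRL replicates 1 and 2 and 1.06 on CRL replicate 3. It read 1.40, 1.25 and 1.19 on the IF1-KO arrays and 1.58, 1.54 and 1.53 on the IF1-TG arrays. The manipulated arrays spanned a narrow range above all CRL arrays, but CRL replicate 3 was nearer to them than to the other CRL arrays. *Hspa4* was 2.37-fold higher (log2 difference 1.24 ± 0.29, SE; exact permutation *P* = 0.0119). The difference was 1.74 within slide 2 and 0.16 within slide 3, and 1.69 without CRL replicate 3. A second *Hspa4* probe, dimmer than the first, differed by 0.19 and did not pass the test.

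*Golga3*, a protein of the Golgi apparatus, showed the same arrangement. Its probe (mm9 chr5:110652102-110652161) read 0.63, 0.49 and 1.31 on the CRL arrays, 1.61, 1.52 and 1.52 on the IF1-KO arrays and 1.82, 1.79 and 1.79 on the IF1-TG arrays. The difference was 0.87 ± 0.17 (SE), 1.14 within slide 2 and 0.21 within slide 3. *Simc1* rose by 0.86 (1.09 and 0.16 within slides 2 and 3) and *Rictor*, the defining subunit of the mTORC2 kinase complex, rose by 0.89 (1.28 and 0.22). *Golga3*, *Simc1* and *Rictor* have 1 tested probe each.

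The other named rises had levels between -5.99 and -0.17. *Kif1c*, a kinesin motor, had the smallest *P* of the rises (0.84 ± 0.14, SE), with CRL values of -4.77, -4.37 and -4.40 and a lowest manipulated value of -3.90. It held within both slides (0.78 and 0.58), but its brighter probe, at a level of 1.61, differed by 0.07 and another probe by -0.25. *Zfp287*, a zinc finger protein, also held within both slides (0.82 and 0.77), on a probe at a level of -5.99 whose brighter partner, at 0.50, differed by 0.04. *Batf2*, a transcription factor of the AP-1 family, rose by 0.98 (1.44 and 0.36 within slides 2 and 3), *Tfr2*, a transferrin receptor, by 0.71 (0.92 and 0.44), and *Gpaa1*, a subunit of the enzyme that attaches GPI anchors, by 0.65 (0.97 and 0.19). *Chd6*, a chromatin remodeler, rose by 1.00 (1.43 and 0.18), with other probes at -0.03 and -0.24. *A230006K03Rik* rose by 0.88 (1.09 and 0.49), with a dimmer probe at 0.24, and *Gm10634* by 0.74 (0.67 and 0.38). Of the 9 fits that left out 1 array, *Gpaa1* passed the thresholds in 7, *Tfr2* in 8 and each other named rise in all 9.

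**Figure D3:**
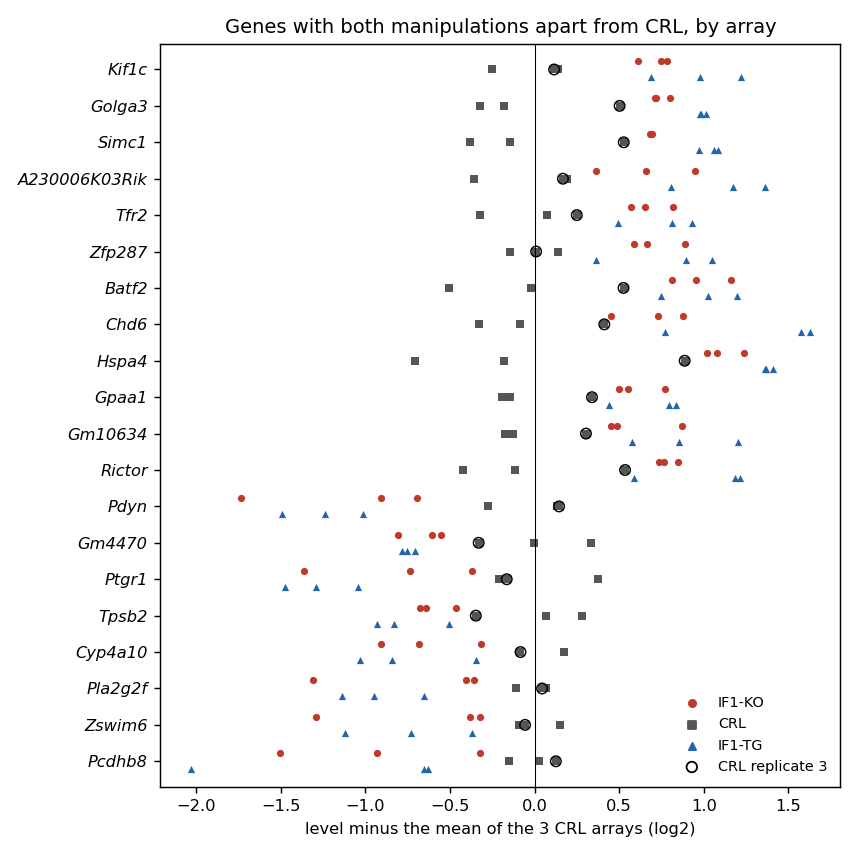
Level of the 12 named rises (top) and 8 named falls (bottom) on each array, as the log2 difference from the mean of the 3 CRL arrays, with IF1-KO as circles, CRL as squares, IF1-TG as triangles and a ring around CRL replicate 3. The 6 manipulated arrays lie on one side of the 3 CRL arrays for every gene shown, which is how the genes were chosen. Among the rises, the ringed square is the CRL square closest to the manipulated arrays in all but *Kif1c*, *A230006K03Rik* and *Zfp287*.

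Some of the genes had more than 1 tested probe. Of the 93 genes, 26 had other probes above background, 37 in all. None of these 37 passed the thresholds in either direction (0 of 37), and 21 had the sign of the probe that did. Taken in the direction of their gene, their median log2 difference was 0.02, and the same-way probes of these 26 genes had a median size of 0.77. The same-way probes were chosen for their size and the others were not, so that a gap between them was fixed by the choice. Of the 69 same-way probes with a placement and a RefSeq symbol, 2 were placed on another chromosome than their gene (*Mrfap1* and *Npm1*).

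**Figure D4:**
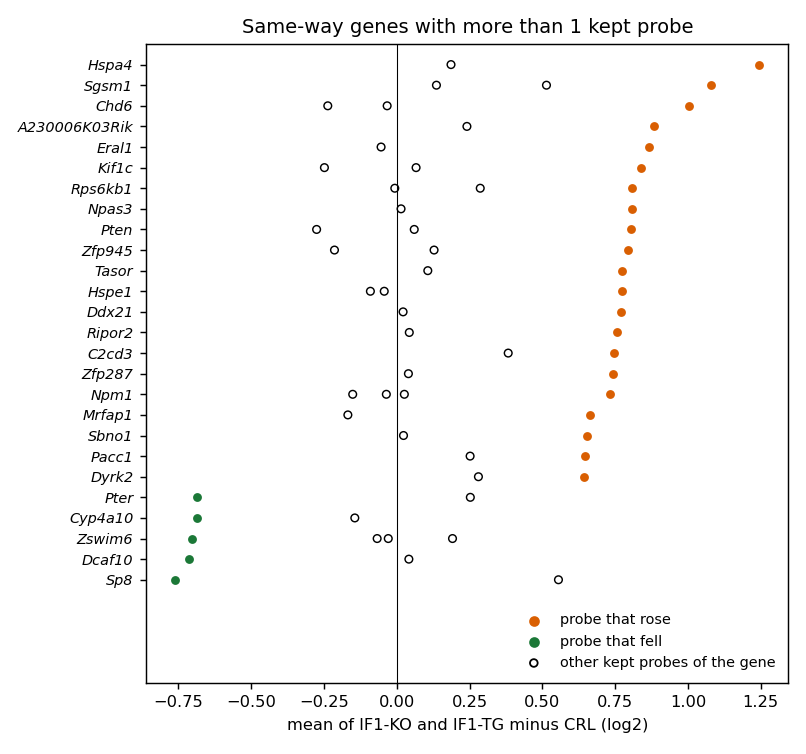
Log2 difference of the mean of IF1-KO and IF1-TG from CRL for the 26 same-way genes with more than 1 tested probe, with the same-way probe filled and the other 37 probes open. The open circles gather around 0, with a median of 0.02 in the direction of the gene.

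Gene lists were read by counts and medians. The number of genes higher than CRL and the median use the brightest tested probe of each gene, whereas a gene rose or fell when any of its probes passed the thresholds. Over the 15619 genes with a RefSeq symbol, 49.7% were higher than CRL, the median difference was 0.00 in absolute terms (-0.00114), and 1.2% had a probe past the thresholds. Heat shock proteins and chaperones refold proteins in the cytosol, mitochondria and endoplasmic reticulum. Of 26 tested, 3 rose, none fell (0), and 7 were higher than CRL, with a median of -0.09. The rises were *Hspa4*, *Hsp90aa1*, an inducible cytosolic Hsp90, and *Hspe1*, the mitochondrial cochaperonin. *Hsp90aa1* read 4.09, 4.64 and 5.15 on the CRL arrays, 5.07 to 5.37 in IF1-KO and 5.07 to 5.48 in IF1-TG mice (0.62 ± 0.22, SE; exact permutation *P* = 0.0476), and differed by 1.00 within slide 2 and -0.05 within slide 3. It passed in 6 of the 9 fits that left out 1 array, with differences from 0.35 to 0.88, lost without CRL replicate 1, IF1-KO replicate 1 and IF1-TG replicate 1. The *Hspe1* rise (0.77) was on a probe at a level of -5.30, and its probes at levels of 2.70 and 1.96 differed by -0.09 and -0.04.

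The members of the list that work in the endoplasmic reticulum, looked at separately after their values had been seen, were all below the fold threshold. *Hspa5* (BiP), the main Hsp70 of the compartment, read 4.33, 4.28 and 4.08 on the CRL arrays, 3.89, 3.69 and 3.97 on the IF1-KO arrays and 4.01, 3.95 and 3.91 on the IF1-TG arrays. Its difference was -0.33 ± 0.10 (SE). *Sdf2l1*, a BiP partner, read 0.13, 0.00 and 0.01 on the CRL arrays against a highest manipulated value of -0.08 (-0.40 ± 0.12, SE). For both genes, and narrowly for *Pdia4* (lowest CRL value -1.36, highest manipulated value -1.39), all 6 manipulated arrays lay below all 3 CRL arrays. In *Hspa5* CRL replicate 3 was closer to the highest manipulated array than to the other CRL arrays. By the brightest probe the arrays did not overlap in 4 of the 26 tested genes of the list, *Hspa4* being the other, and in 346 of all 15619 genes. *Creld2* differed by -0.27, *Manf* by -0.26, *Hsp90b1* by -0.20, *Pdia4* by -0.18, *Pdia3* by -0.13 and *Calr* by 0.05. The IF1-KO and IF1-TG differences had opposite signs in *Manf* (0.004 and -0.52) and *Calr* (-0.09 and 0.19), and *Hspa5*, *Sdf2l1* and *Creld2* alone among these genes had an unadjusted limma *P* below 0.05.

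Mitochondrial and metabolic lists were read next. Of 75 subunits of oxidative phosphorylation, 1 rose and none fell (0), with a median of 0.06. The gene was *Cox7c*, a subunit of cytochrome c oxidase (0.64), on a probe that the array places on a different chromosome from the gene, and its brighter probe differed by -0.05. Of 74 mitochondrial ribosomal proteins, *Mrpl27* rose (0.64, exact permutation *P* = 0.0595), and its brighter probe differed by -0.03. *Mrpl27* passed the thresholds in 2 of the 9 fits that left out 1 array (those without CRL replicate 3 and IF1-TG replicate 2), with differences from 0.36 to 1.07, the highest without CRL replicate 3, and it differed by 0.02 within slide 3. *Cox7c* passed in 4 of the 9 (without CRL replicate 3, IF1-KO replicates 2 and 3 and IF1-TG replicate 2), with differences from 0.41 to 0.88. Mitochondrial biogenesis and dynamics genes had 6 of 27 higher (median -0.07), antioxidant genes 18 of 31 (median 0.02), and genes of the integrated and mitochondrial stress responses 11 of 23 (median 0.00 in absolute terms, -0.00255), and none of these passed the thresholds (0 in each list). In serine, one-carbon and related amino acid metabolism, 14 of 29 were higher (median -0.02) and 0 passed the thresholds. Its members at an unadjusted limma *P* below 0.05 included *Gldc* (-0.41), *Shmt1* (-0.41) and *Cth* (-0.34).

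Of 62 postsynaptic receptors and scaffolds, 2 rose and none fell (0), with a median of 0.02. These were *Grin2b*, an NMDA receptor subunit (0.71, with a brighter probe at 0.19), and *Grm5*, a metabotropic glutamate receptor (0.66, with other probes at 0.10 and 0.29). Of the 9 fits that left out 1 array, *Grm5* passed in 6, lost without CRL replicate 1, CRL replicate 2 and IF1-TG replicate 3. *Grin2b* passed in 4, lost without CRL replicates 1 and 3, IF1-KO replicates 2 and 3 and IF1-TG replicate 3 (0.56 without CRL replicate 3), and its exact permutation *P* was 0.107. *Grin2b* differed by 0.36 in IF1-KO and 1.06 in IF1-TG mice, and its arrays overlapped, with -0.24, 0.29 and -0.42 on the CRL arrays and 0.03, 0.26 and 0.41 on the IF1-KO arrays. Synaptic vesicle genes (24 of 39 higher, median 0.05), calcium signaling genes (25 of 50, median 0.00 in absolute terms, 0.00163) and potassium channel genes (20 of 49, median -0.04) had 0 past the thresholds. Immediate early genes, which neuronal activity induces, had 8 of 32 higher and a median of -0.15, with -0.03 in IF1-KO and -0.28 in IF1-TG mice, and 0 past the thresholds. On the arrays of CRL replicates 2 and 3 the median of this list differed from the CRL mean by 0.52 and -0.40, a spread wider than the difference.

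Interferon response genes were higher for 25 of 31 members, with a median of 0.11 (0.07 in IF1-KO and 0.13 in IF1-TG mice). *Oas1a*, an antiviral oligoadenylate synthetase, rose by 0.59 (exact permutation *P* = 0.0952), but its difference was 0.78 within slide 2 and -0.21 within slide 3, and its arrays overlapped. It lost the call without CRL replicate 1, IF1-KO replicate 1 or IF1-TG replicate 1, with differences from 0.38 to 0.78 over the 9 fits that left out 1 array. CRL replicates 1, 2 and 3 had list medians of -0.27, 0.22 and -0.02 relative to the CRL mean, so that a single CRL mouse differed from another by more than the shift of the list. Circadian clock genes (9 of 18 higher, median 0.01), glucocorticoid response genes (8 of 19, median -0.02) and CD40 and NF-kB genes (16 of 34, median -0.01) had 0 past the thresholds.

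**Figure D5:**
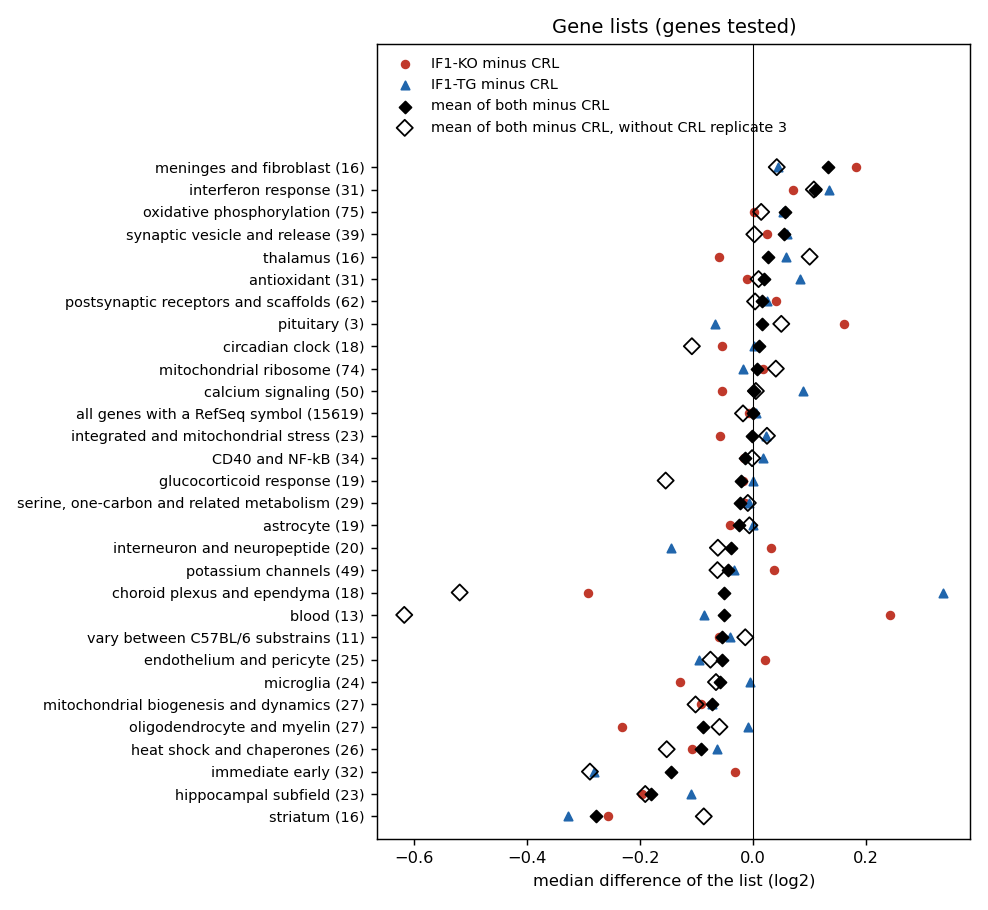
Median log2 difference from CRL of each gene list and of all 15619 genes with a RefSeq symbol, with the number of genes tested in parentheses, for IF1-KO (circles), IF1-TG (triangles), the mean of both (filled diamonds) and the mean of both without CRL replicate 3 (open diamonds). The striatum list lies at -0.28 and moves to -0.09 without CRL replicate 3.

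The hippocampal identity of the tissue was examined with markers of its subfields. *Prox1*, *Wfs1*, *Fibcd1*, *Grik4*, *Pou3f1*, *Dsp*, *C1ql2* and *Camk2a* were all well above background on the 9 arrays, with *Wfs1* between 2.92 and 3.65 and *Camk2a* between 2.50 and 3.35. Of 23 subfield genes 6 were higher than CRL, the median was -0.18, and 0 passed the thresholds. Among the markers of dentate granule cells, which express *Pdyn*, *Prox1* differed by -0.43, *Dsp* by -0.66, *C1ql2* by -0.53 and *Lct* by -0.70, whereas *Pdzd2* differed by 0.29 and *Tdo2* by 0.05. *Lct* read -0.004 on IF1-KO replicate 2 and at least 1.37 on every other array, and its difference was -0.37 without that array. *C1ql2* read -2.89 on IF1-TG replicate 1 and at least -1.61 on every other array, and its difference was -0.24 without it. *Prox1* differed by -0.29 without IF1-KO replicate 2, *Pdzd2* by 0.014 without CRL replicate 1 and 0.043 without IF1-TG replicate 1, and *Tdo2* by -0.11 to 0.30 when single arrays were left out. None of these 6 markers had an unadjusted limma *P* below 0.05. The summed linear signal of the subfield list ranged from 78.9 to 86.8 times the 75th percentile in CRL, 67.2 to 76.2 in IF1-KO and 71.2 to 81.2 in IF1-TG mice. Fewer cells of a type and less RNA per cell cannot be told apart in dissected tissue, and the part of these markers in the *Pdyn* fall was not tested.

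*Adora2a*, the adenosine receptor of striatal projection neurons, also fell (-1.06 ± 0.35, SE; exact permutation *P* = 0.0238). It read -1.87 on CRL replicate 3 against -3.35 and -3.61 on the other CRL arrays, with the manipulated arrays between -4.26 and -3.48. Without CRL replicate 3 the difference was -0.52, below 1.5-fold. Of 16 striatal markers tested, 12 were highest of all 9 arrays on CRL replicate 3, where 6.53% of all genes were, and 4 others (*Ido1*, *Isl1*, *Sh3rf2* and *Six3*) were not tested. The summed signal of the list was 58.1 on CRL replicate 3, where the lowest CRL array had 41.7, and it was 38.3 to 41.0 in IF1-KO and 38.4 to 42.9 in IF1-TG mice. *Pdyn* is itself 1 of these 16 markers. On CRL replicates 1, 2 and 3, *Drd1* read -2.14, -2.55 and -1.20 and *Penk* 2.79, 1.34 and 3.30, beside *Pdyn* at 1.73, 1.32 and 1.74. The *Pdyn* difference was -1.11 without CRL replicate 3, and the part of striatal tissue on the other arrays was not tested.

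Markers of other tissues and cell types were read in the same way. The summed signal of choroid plexus and ependymal genes ranged from 24.2 to 202.8 in CRL, 16.3 to 150.4 in IF1-KO and 20.0 to 272.7 in IF1-TG mice. That of blood genes reached 445.0 on a CRL array and at most 168.6 on the IF1-KO and IF1-TG arrays. Microglial genes were higher than CRL for 4 of 24 members (median -0.06), and their summed signal was 107.8 to 125.8 in CRL, 97.1 to 116.7 in IF1-KO and 117.8 to 142.2 in IF1-TG mice, so that the IF1-KO and IF1-TG arrays did not overlap. Members higher than CRL numbered 9 of 27 for oligodendrocyte and myelin genes (median -0.09, with -0.23 in IF1-KO and -0.01 in IF1-TG mice), 9 of 19 for astrocyte genes (median -0.03), 10 of 25 for endothelial and pericyte genes (median -0.06), 8 of 16 for thalamic genes (median 0.03), and 10 of 16 for meningeal genes (median 0.13). Interneuron and neuropeptide genes, which include *Pdyn*, were higher for 7 of 20 (median -0.04), and pituitary genes for 2 of 3 (median 0.02). Apart from *Pdyn*, 0 genes of these lists passed the thresholds.

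*Wdfy1*, an endosomal adaptor protein and a gene known to vary between C57BL/6 substrains, passed the thresholds without being a same-way gene. Its brightest probe read 1.35, 0.69 and 1.12 on the CRL arrays, -0.44, -0.69 and -0.56 on the IF1-KO arrays and 0.63, 0.64 and 0.61 on the IF1-TG arrays. The difference was -1.61 in IF1-KO mice and -0.42 in IF1-TG mice. A second probe gave -1.36 and -0.39, and another, at a level of -2.03, gave 0.10 and 0.03. Of 11 tested genes known to vary between substrains, 4 were higher than CRL (median -0.05), and *Wdfy1* alone passed the thresholds.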

How the data were processed

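Total RNA from the hippocampus of 9 mice was hybridized to one-colour Agilent mouse arrays, 1 mouse per array. The deposited intensities are those that Agilent Feature Extraction 10.7.3.1 gave for each spot after it subtracted background and detrended the array, and the authors deposited them without normalization between arrays. Uncorrected mean and background intensities, also deposited, were used for an alternative. The submitters' processing notes name limma. Genotypes and replicate numbers come from the sample labels, constructs from the methods of the study, and slides from the deposited array labels. No label says more of the replicates than that they are separate mice.

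Processed intensities were log2-transformed, and the 75th percentile of each array was subtracted. Control and outlier spots were left out, spots of a probe were averaged, and probes had to be well above background on all 9 arrays. No spot was saturated (0 on each array), and replicate correlations ranged from 0.985 to 0.993. Between 66.7% and 74.8% of probes were well above background, the IF1-TG arrays having the smallest shares, and the number of arrays limits the precision. Genotype was fitted with limma 3.58.1 (lmFit and eBayes; R 4.3.3), and the contrast was the mean of IF1-KO and IF1-TG minus CRL, with fold change 1.5 and unadjusted *P* below 0.05. Steps were tested on simulated data. Of the 24937 probes tested, 4097 had no RefSeq symbol and keep the name of the array. Exact permutation tests used all 84 splits.

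The comparison, the gene lists and the rule for named genes were chosen with earlier results of these data known. The rule names *Atpif1*, genes past an adjusted *P* of 0.05 (0 were found), the 12 rises and 12 falls with the smallest *P* among same-way genes with a RefSeq symbol whose arrays did not overlap the CRL arrays (8 falls were found), and list members past the thresholds. Genes at the fold threshold, endoplasmic reticulum chaperones, granule cell markers and metabolic genes below the fold threshold were chosen after seeing their values. Alternatives were normexp background correction (offset 50) with quantile normalization, quantile normalization alone, weaker filters on dim probes, slide as a block (fixed, then random), a replicate block, 2 groups, trended and robust eBayes, averaging over the probes of a gene, counting probes, and each array left out. Leaving out IF1-KO replicate 1 and CRL replicate 3 together was chosen after seeing the data. Sequences are from RefSeq tables. Some results for single genes are not reported here.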

Additional observations from a re-analysis of the deposited data

Results flagged for a closer look

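For 3 of the named genes the limma test of IF1-TG minus IF1-KO reached a fold change of 1.5 and an unadjusted *P* below 0.05. None of them passed the adjustment for the number of probes. *Wdfy1* was lower in IF1-KO than in IF1-TG mice by 1.19 on its brightest probe (mean level -0.56 and 0.63, limma adjusted *P* = 0.495) and by 0.972 on a second probe (-3.57 and -2.60, limma adjusted *P* = 0.699). *Atpif1*, the targeted gene, differed by 0.718 (5.72 and 6.44, limma adjusted *P* = 0.713), with the array labelled IF1-KO replicate 1 at the level of the IF1-TG arrays. *Chd6* rose in both models, by 0.69 in IF1-KO and 1.32 in IF1-TG mice, and the difference of 0.637 between them had a limma adjusted *P* = 0.721.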

How the results depend on the processing

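The count of 250 genes past the thresholds was 137 under normexp and quantile normalization, 426 with probes well above background in at least 1 genotype, 1223 with no filter on dim probes and 622 with slide as a fixed block, and it ranged from 198 to 646 when single arrays were left out. The count of 93 same-way genes was 188 and 553 under the weaker filters and ranged from 69 to 362 without single arrays. Without IF1-KO replicate 1 and CRL replicate 3 together, chosen after seeing the data, the counts were 764 and 397. IF1-KO against CRL (176 genes) gave 294 and 723 under the weaker filters, 117 with slide as a fixed block, from 104 (without CRL replicate 1) to 771 (without CRL replicate 3) when single arrays were left out, among them 332 without IF1-KO replicate 1, and 1220 without both doubted arrays. IF1-TG against CRL (879 genes) gave 519 under normexp, 4522 with no filter, 1808 with slide as a fixed block, and from 746 to 1514 without single arrays (1514 without IF1-TG replicate 2, without which the count of 250 was 428). The other settings kept these counts within 1.5 times. The split by direction also moved. Of the genes past the thresholds, 78% were rises in the original fit. The share ranged from 56.9% (148 rises and 112 falls, without IF1-TG replicate 3) to 83.9% under normexp. The 76 same-way rises and 17 falls became 116 and 72, and 322 and 234, under the weaker filters. They were 58 and 5 under normexp, 67 and 30 with the slide block, and 94 and 44 without CRL replicate 2. Of the 93 same-way genes, 88 and 83 were shared under the weaker filters, 38 under normexp, 48 with the slide block, and 30 to 83 when single arrays were left out, 41 of them without CRL replicate 1.

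Replicate numbers did not pair the arrays, since deviations of same-numbered arrays correlated between -0.152 and 0.146. With the replicate block, 239 genes passed the thresholds and 87 moved the same way, 83 of them among the 93, with 203 genes in IF1-KO and 828 in IF1-TG against CRL.

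For the genes named for separated arrays, leaving arrays out could not change the sign. Of the 31 named probe values 0 changed sign under the alternative fits, but within single slides *Atpif1* (0.15 within slide 2), *Cox7c* (-0.05), *Hsp90aa1* (-0.05) and *Oas1a* (-0.21, these within slide 3) did. Past the thresholds in the original fit, 10 were below them under normexp, 4 with slide as a fixed block, 8 without CRL replicate 1, 8 without CRL replicate 2 and 3 without CRL replicate 3, and 11 of 14 were below them with the mean of a gene's probes. *Golga3*, *Simc1*, *Hspa4*, *Rictor*, *Pdyn*, *Ptgr1* and both *Wdfy1* probes stayed past them in all settings run in which their probe was fitted. Of 580 list medians under alternatives, 21 moved by more than the spread between replicates. For heat shock and chaperone genes the median was -0.13 under normexp, from -0.15 to -0.050 without single arrays and -0.15 without both doubted arrays. Oxidative phosphorylation moved to 0.0055 and -0.011 under normexp and without both, antioxidant genes to -0.033 and -0.013 (0.00015 to 0.051 without single arrays), and mitochondrial ribosomal genes to 0.037 with the slide block and 0.037 without both (-0.0048 to 0.040). Microglial genes moved to -0.083 under normexp, and substrain genes to 0.012 with no filter and -0.00092 without both. The striatum list ranged from -0.45 to -0.087 and was -0.088 without both, circadian genes ranged from -0.11 to 0.066, and glucocorticoid response genes from -0.15 to 0.030 (-0.15 without both).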
